A study of Mus musculus with 4 samples.

Results

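The genes described here encode the nuclear subunits of the mitochondrial respiratory chain and of ATP synthase, followed over 4 days of development in whole gonads of male mouse embryos. They were chosen by symbol: Nduf for complex I, Sdha to Sdhd for complex II, Uqcr for complex III, Cox4 to Cox8 for complex IV and Atp5 for ATP synthase, which is also called complex V. Of 96 protein-coding genes with such symbols in the reference annotation, 87 had a probe on the array that could be matched to them. All 87 passed the filter on dim probes, which asked for a signal well above background on the 2 arrays of any stage. They entered the test of 21986 entries, here called genes. Of these entries 13481 had a gene symbol, and the rest stood under another identifier of the array. The 87 comprise 35 complex I subunits, 5 complex I assembly factors (Ndufaf), 4 genes of complex II, 8 of complex III, 18 of complex IV and 17 of ATP synthase. The 9 genes with no matched probe were Ndufa11, Ndufa4l2, Ndufaf2, Ndufaf6, Ndufaf8, Ndufb1, Ndufb4b, Ndufb4c and Ndufv2, and they were not analysed here.

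The groups were wild-type male gonads of the mouse line MCH, taken on embryonic day 12.5, 13.5, 14.5 or 15.5 (written E12.5 and so on), with 2 one-colour Agilent arrays per stage, which the series text calls biological duplicates. No treatment, transgene or mutant allele is named in the labels, and the number of embryos behind each RNA is not given in the sources used here. The first array of E12.5 was on slide 1 together with the first of E13.5, their second arrays were on slide 2, and the later pair of stages was on slide 3 with its 4 arrays. E13.5 can therefore be set against E12.5, and E15.5 against E14.5, within slides, whereas in E14.5 against E13.5 and in E15.5 against E12.5 slide and stage cannot be told apart.

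The respiratory chain sits in the inner mitochondrial membrane. Complexes I and II pass electrons from NADH and succinate to ubiquinone, complex III passes them on to cytochrome c, and complex IV, cytochrome c oxidase, hands them to oxygen. Complexes I, III and IV pump protons, and ATP synthase uses the resulting gradient to make ATP. Most subunits are nuclear genes whose products are imported, while a small core is encoded by mitochondrial DNA, which is not among the genes described here. At the stages studied the testis cords take shape, fetal Leydig cells begin to make steroids, and male germ cells leave the cell cycle.

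Promoters of these genes are known for sites of nuclear respiratory factor 1 (NRF1), of ETS family factors such as GABP (also called NRF2), and of YY1. The RefSeq promoter table (GRCm38.p6) held an entry for 72 of the 87 genes. Each entry ran from 250 bases before to 50 bases after its own annotated start, which is the start meant below. Searched on both strands, the NRF1 motif was found in 18 of 72 (25%), against 7.17% of 17492 protein-coding genes with an entry. The ETS motif CCGGAAG was found in 18 of 72 (25%), against 12.9%, and the YY1 motif AANATGGCG in 10 of 72 (13.9%), against 3.64%. NRF1 and ETS motifs stood together in 4 of the 72 promoters, and 32 held none of the 3 motifs. The 250 bases upstream of the start are shown for 7 genes, so that promoters with and without a motif can be set side by side, with motif matches in capitals. They are, of the genes with an entry, the one with the lowest called change from E12.5 to E15.5 in each of complexes I, III, IV and V and among the assembly factors, and the 2 genes that rose. Atp5k (chr5:108434400-108434649, minus strand) and Ndufaf4 (chr4:24897833-24898082, plus strand), whose fitted falls were the largest, each hold an NRF1 motif, at -50 to -41 and at -113 to -104 from the start. Atp5k also holds an ETS motif at 12 to 18, beyond the printed stretch. Ndufa5 (chr6:24527527-24527776, minus strand) holds an NRF1 motif at -190 to -181 from the start of its entry. That start lies inside the annotated span of the gene (chr6:24518662-24527690), and so does part of the printed stretch. Uqcr11 (chr10:80406822-80407071, minus strand), which also fell, holds an ETS motif at -66 to -60. Ndufs3 (chr2:90904722-90904971, minus strand), which rose, holds an ETS motif at -27 to -21 and another at 1 to 7, beyond the printed stretch. Cox5a (chr9:57520982-57521231, plus strand), which fell, and Cox7a2l (chr17:83514334-83514583, minus strand), which rose, hold none of the 3 motifs. The stretch printed for Cox5a lies wholly inside the annotated span of the gene (chr9:57517328-57532427). It therefore does not show the bases before that span.
Atp5k: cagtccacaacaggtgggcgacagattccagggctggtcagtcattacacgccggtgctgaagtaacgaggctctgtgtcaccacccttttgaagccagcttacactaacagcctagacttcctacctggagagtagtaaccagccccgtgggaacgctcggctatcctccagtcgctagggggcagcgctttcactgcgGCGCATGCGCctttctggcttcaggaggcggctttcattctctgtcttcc
Ndufaf4: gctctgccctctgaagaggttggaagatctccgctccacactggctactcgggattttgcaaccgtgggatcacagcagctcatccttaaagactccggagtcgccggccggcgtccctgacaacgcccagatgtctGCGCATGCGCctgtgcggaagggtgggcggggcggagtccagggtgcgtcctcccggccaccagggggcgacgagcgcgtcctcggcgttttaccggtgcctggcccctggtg
Ndufa5: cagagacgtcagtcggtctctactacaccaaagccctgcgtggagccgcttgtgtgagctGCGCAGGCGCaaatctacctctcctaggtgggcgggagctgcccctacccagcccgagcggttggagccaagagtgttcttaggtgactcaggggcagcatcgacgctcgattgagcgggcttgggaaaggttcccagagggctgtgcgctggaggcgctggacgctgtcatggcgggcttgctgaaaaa
Uqcr11: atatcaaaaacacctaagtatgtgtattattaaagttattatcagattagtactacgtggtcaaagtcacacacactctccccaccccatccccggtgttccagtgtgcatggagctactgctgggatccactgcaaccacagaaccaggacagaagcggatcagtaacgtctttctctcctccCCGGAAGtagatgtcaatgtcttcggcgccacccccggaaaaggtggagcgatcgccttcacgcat
Cox5a: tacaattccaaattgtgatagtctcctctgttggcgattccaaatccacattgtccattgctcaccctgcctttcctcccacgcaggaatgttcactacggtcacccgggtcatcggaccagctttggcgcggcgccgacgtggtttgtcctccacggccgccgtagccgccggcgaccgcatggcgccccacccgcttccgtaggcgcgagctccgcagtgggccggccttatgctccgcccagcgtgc
Ndufs3: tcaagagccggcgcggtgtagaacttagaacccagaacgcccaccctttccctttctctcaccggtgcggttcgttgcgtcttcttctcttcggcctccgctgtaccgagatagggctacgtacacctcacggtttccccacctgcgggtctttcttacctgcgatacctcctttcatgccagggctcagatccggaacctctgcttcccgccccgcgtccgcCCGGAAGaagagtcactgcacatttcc
Cox7a2l: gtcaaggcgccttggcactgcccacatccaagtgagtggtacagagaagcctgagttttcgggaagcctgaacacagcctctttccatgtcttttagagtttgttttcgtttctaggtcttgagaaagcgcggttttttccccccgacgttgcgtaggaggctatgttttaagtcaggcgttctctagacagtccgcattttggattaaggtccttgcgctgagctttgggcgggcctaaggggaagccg
Among genes later called lower from E12.5 to E15.5, 31 had a promoter entry and held the NRF1, ETS and YY1 motifs in 22.6%, 22.6% and 12.9%. Among the 41 others with an entry the shares were 26.8%, 26.8% and 14.6%. These matches describe letters in a window only.

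Levels are log2 processed signals from which the 75th percentile of all non-control probes of the same array was subtracted, so a level of 0 is that percentile and a difference of 1 is a doubling. Each ± gives limma's standard error, with n = 2 arrays per stage, and a gene was called at a Benjamini-Hochberg adjusted p under 0.05 over all 21986 genes. Nothing in the p-values reflects more than the spread between arrays of 1 stage. Of the 87 genes, 85 were well above background on all 8 arrays, the exceptions being Cox4i2 and Cox8b, and 0 were saturated. Probes well above background made up 60.3% to 69.8% of an array. The arrays of a stage differed in these genes by a median of 0.15 at E12.5, 0.26 at E13.5, 0.29 at E14.5 and 0.20 at E15.5 on the log2 scale. Sertoli cell markers such as Sox9 and Amh (6 of 6 on the array) and germ cell markers such as Ddx4 (9 of 10) were above background on all 8 arrays. The gonads are mixtures, and in such bulk RNA fewer cells of a type and less RNA per cell cannot be told apart.

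From E12.5 to E15.5, 35 of the 87 genes fell (40.2%) and 2 rose (Ndufs3 and Cox7a2l), where 17.4% of all genes tested were called lower and 17.6% higher. Falls were called for 15 of 35 complex I subunits, 3 of 8 complex III genes, 9 of 18 complex IV genes and 7 of 17 ATP synthase genes, but for 0 of 4 complex II genes. Of the 5 assembly factors only Ndufaf4 fell. The median change of all 87 was log2 -0.58, against -0.07 for all genes tested, and 16 of the called falls were of more than log2 1. All but 1 of the called falls were of genes above background on all 8 arrays, the exception being Cox8b. The arrays of E15.5 lay below both arrays of E12.5 for 61 of the 87 genes (39.3% of all genes) and above both for 10 (34.7% of all genes).

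With 1 array of E12.5 or of E15.5 left out, that stage keeps 1 array, and fewer of all genes were called lower. The count of falls also depended strongly on having both arrays of a stage. When an E12.5 array was left out it was 17 without array 1 (19.5%, against 11.3% of all genes) and 8 without array 2 (9.2%, against 10.1%). When an E15.5 array was left out it was 12 without array 1 (13.8%, against 10.5%) and 6 without array 2 (6.9%, against 6.88%), so without either array 2 the share of genes called was near that of all genes. The direction depended less on single arrays, with fitted changes below 0 for 69 of 87 genes with all arrays (53.2% of all genes). With 1 array of E12.5 or E15.5 left out it was 69 to 74 genes (51.6% to 53.9% of all genes). Leaving out an array of E13.5 or E14.5 cannot alter these fitted changes. Ndufaf4, Uqcr11, Uqcrq, Cox5b, Cox7c and Atp5j2 were called lower whichever array was left out. With quantile scaling 21 genes fell (24.1%, against 17.7% of all genes) and 5 rose, where 19.5% of all genes did. The median was then -0.27, against -0.03 for all genes.

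**Figure D1:**
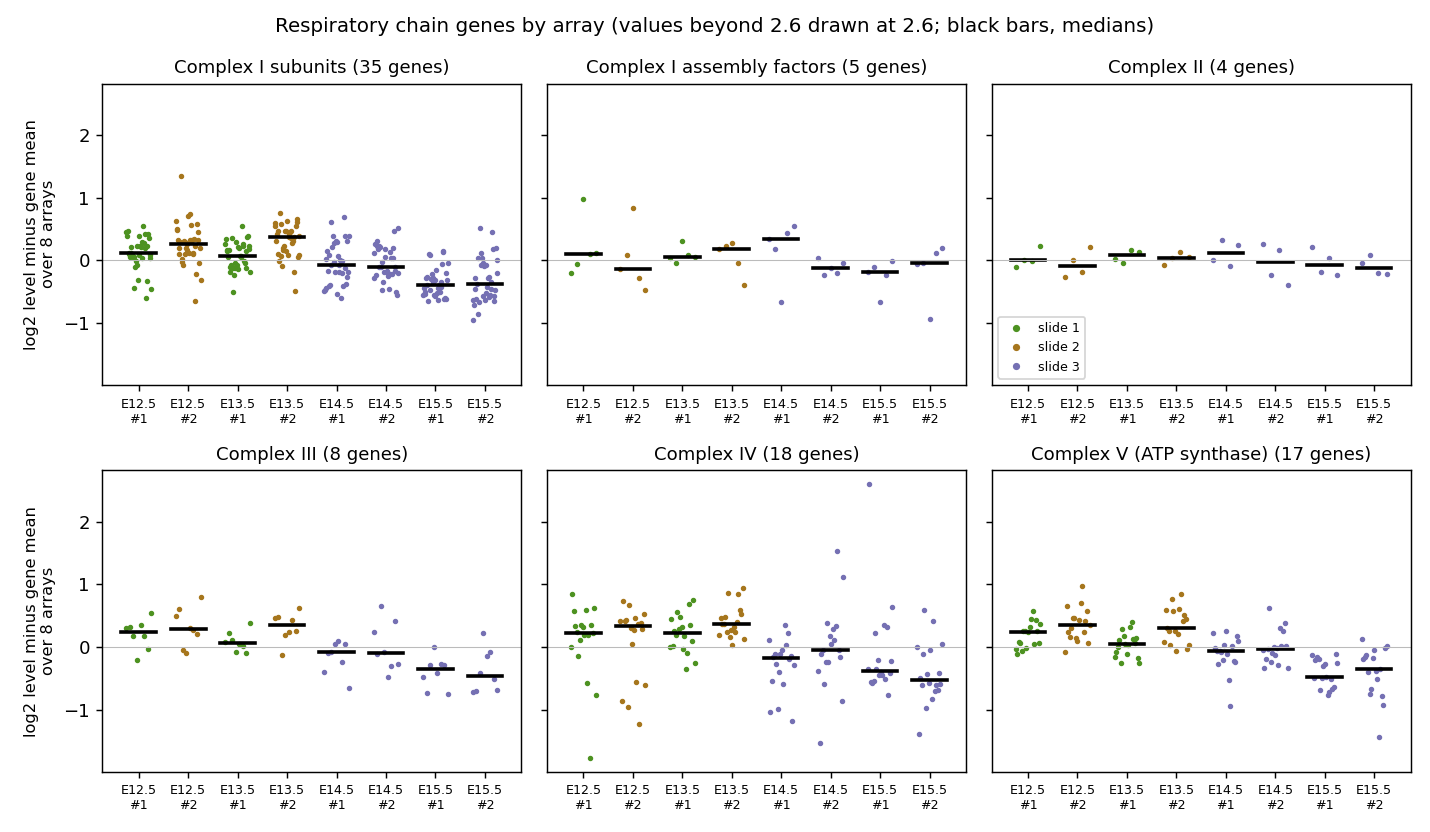
Log2 level of each gene minus its mean over the 8 arrays (vertical axis), by array (horizontal axis, stage and array number), in 1 panel per complex; points are genes, coloured by slide, and black bars are medians. The medians of complex I subunits run from 0.11 and 0.26 on the E12.5 arrays to -0.39 and -0.38 on the E15.5 arrays, while those of the 4 complex II genes stay between -0.13 and 0.12.

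Complex I takes electrons from NADH through a matrix arm that holds the flavin and the iron-sulfur clusters. The steepest fitted fall among its subunits was that of Ndufa5, an accessory subunit of the matrix arm, with levels of 5.31 and 6.54 at E12.5, 5.0 and 5.94 at E13.5, 4.79 and 5.08 at E14.5 and 4.55 and 4.33 at E15.5. The E12.5 and E15.5 arrays did not overlap, but the E12.5 arrays themselves lay far apart. The change was log2 -1.49 ± 0.47, and limma's adjusted p of 0.0485 was close to the threshold. Ndufa1, an X-linked accessory subunit of the membrane arm, had levels of 4.79 and 4.96 at E12.5, 4.59 and 4.88 at E13.5, 3.84 and 4.45 at E14.5 and 3.79 and 3.39 at E15.5. Its levels at E15.5 were below those of all other arrays, and it fell by log2 -1.29 ± 0.27 (limma adjusted p = 0.0132). A second probe of Ndufa1 gave log2 -1.04.

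The other complex I subunits that fell were Ndufa4, Ndufa10, Ndufa12, Ndufb2, Ndufb4, Ndufb6, Ndufb7, Ndufb8, Ndufc2, Ndufs1, Ndufs5, Ndufs6 and Ndufs7. The smallest of these falls was that of Ndufa4, at log2 -0.58 ± 0.17 (limma adjusted p = 0.0385). Ndufa4 is named for complex I, but its product is now placed in complex IV. Among the core subunits that carry redox centres, Ndufs1 and Ndufs7 fell, whereas Ndufs8 was at log2 0.01 ± 0.31 and Ndufv1 at -0.41 ± 0.17, and neither was called.

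Ndufs3, a core subunit of the matrix arm (chr2:90894627-90904721), moved the other way. Its levels were 2.98 and 2.93 at E12.5, 3.53 and 3.39 at E13.5, 4.26 and 3.77 at E14.5 and 3.71 and 4.03 at E15.5. All arrays from E13.5 on lay above both E12.5 arrays, and it rose by log2 0.92 ± 0.23 from E12.5 to E15.5 (limma adjusted p = 0.0231). Without either array of E12.5 or of E15.5 it was not called (limma adjusted p = 0.0502 to 0.138), with changes of 0.76 to 1.08.

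Ndufaf4, an assembly factor needed to build complex I (chr4:24898083-24905001), had levels of 2.28 and 2.14 at E12.5, 1.62 and 1.58 at E13.5, 0.64 and 1.19 at E14.5 and 0.64 and 0.38 at E15.5. Both E13.5 arrays lay below E12.5 and both E14.5 arrays below E13.5, whereas E14.5 and E15.5 overlapped. The fall from E12.5 to E15.5 was log2 -1.70 ± 0.23, or 3.24-fold (limma adjusted p = 0.00281). Another probe of the gene gave log2 -1.89, but the third gave -0.02. The other 4 assembly factors were not called, and their changes ran from -0.09 for Ndufaf3 to 0.26 for Ndufaf7.

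Complex II, succinate dehydrogenase, is also an enzyme of the citric acid cycle and has no subunit encoded by mitochondrial DNA. Its 4 genes had a median change of log2 -0.03 from E12.5 to E15.5, and 0 were called in any of the 4 comparisons. The flavoprotein gene Sdha had levels of 2.24 and 2.09 at E12.5, 2.37 and 2.28 at E13.5, 2.36 and 2.61 at E14.5 and 2.56 and 2.31 at E15.5. Its arrays at E15.5 lay just above those at E12.5, with a change of log2 0.27 and a 95% interval of -0.19 to 0.74, while a second probe gave -0.19. The iron-sulfur subunit gene Sdhb changed by log2 -0.06 (95% interval -0.63 to 0.50) and the membrane anchor gene Sdhc by 0.00 (-0.46 to 0.47). Sdhd, the other membrane anchor, had the lowest change of the 4, at log2 -0.45 (-1.01 to 0.12). A fall of the size of the median of all 87 genes thus lay within the intervals of Sdhb and Sdhd and outside those of Sdha and Sdhc. The difference between complex II and the other complexes was not tested.

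Complex III passes electrons from ubiquinol to cytochrome c. Of its 8 genes those for 3 small subunits fell, namely Uqcrq, Uqcr11 and Uqcr10. Uqcrq had levels of 6.09 and 6.35 at E12.5, 5.94 and 6.17 at E13.5, 4.90 and 5.28 at E14.5 and 4.8 and 4.86 at E15.5. The E14.5 and E15.5 arrays lay below all E12.5 and E13.5 arrays. The fall from E12.5 to E15.5 was log2 -1.39 ± 0.22, or 2.62-fold (limma adjusted p = 0.00419).

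Uqcr11 had levels of 5.02 and 5.32 at E12.5, 4.93 and 5.19 at E13.5, 4.62 and 4.60 at E14.5 and 3.97 and 4.01 at E15.5. Its E15.5 arrays were again below all others, and it fell by log2 -1.18 ± 0.19 (limma adjusted p = 0.00525). The genes of the 2 large core proteins and of the Rieske iron-sulfur protein were not called. Uqcrc1, for core protein 1, had the highest change of the complex, at log2 0.26 ± 0.19, with -0.04 from a second probe, Uqcrc2 was at -0.61 ± 0.24 and the Rieske protein gene Uqcrfs1 at -0.40 ± 0.20.

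Complex IV has a catalytic core encoded by mitochondrial DNA, surrounded by nuclear subunits, several of which exist in isoforms. Genes of the general forms Cox5a, Cox5b, Cox6c, Cox7a2, Cox7b, Cox7c and Cox8a fell, as did those of the isoforms Cox6b2 and Cox8b. Cox5a had levels of 6.18 and 6.34 at E12.5, 5.62 and 5.98 at E13.5, 5.06 and 5.50 at E14.5 and 5.05 and 5.11 at E15.5. The E12.5 arrays were above all others, and the fall to E15.5 was log2 -1.18 ± 0.23 (limma adjusted p = 0.00951). Cox7a2 was at 5.20 and 5.07 at E12.5, 4.78 and 4.92 at E13.5, 4.02 and 4.89 at E14.5 and 4.16 and 3.78 at E15.5. The E14.5 arrays differed more from each other than E12.5 did from E13.5, and the fall from E12.5 to E15.5 was log2 -1.16 ± 0.31 (limma adjusted p = 0.0289), with -1.01 from a second probe.

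ATP synthase consists of a catalytic head, F1, and a membrane part, Fo, whose ring of c subunits turns as protons pass. The 7 genes that fell were Atp5g1, Atp5g2, Atp5j, Atp5j2, Atp5k, Atp5md and Atp5mpl, which encode parts of Fo or of the stalk beside it. Other genes of Fo and the stalk were not called, namely Atp5l, for subunit g, at log2 -0.58 ± 0.19, Atp5pb, for subunit b, at -0.48 ± 0.23, Atp5h, for subunit d, at -0.33 ± 0.21, and Atp5o, for the protein that joins the stalk to F1, at -0.14 ± 0.17. Atp5k, for subunit e at the contact of ATP synthase dimers (chr5:108433246-108434399), had levels of 3.59 and 4.0 at E12.5, 3.42 and 3.87 at E13.5, 2.08 and 3.33 at E14.5 and 2.30 and 1.58 at E15.5. All arrays of slide 3 lay below those of slides 1 and 2, but the E14.5 arrays were far apart and enclosed the higher E15.5 array. The fall of log2 -1.85 ± 0.46, or 3.61-fold, was the largest of the 87 fitted falls (limma adjusted p = 0.0223).

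Atp5j2, for subunit f, had levels of 5.75 and 6.01 at E12.5, 5.62 and 5.91 at E13.5, 4.78 and 5.01 at E14.5 and 4.53 and 4.79 at E15.5, and fell by log2 -1.22 ± 0.21 (limma adjusted p = 0.00674). Atp5mpl, for the small 6.8 kDa proteolipid, was at 3.63 and 3.96 at E12.5, 3.52 and 3.82 at E13.5, 3.14 and 3.77 at E14.5 and 2.74 and 2.46 at E15.5, and fell by log2 -1.19 ± 0.28 (limma adjusted p = 0.0178). In Atp5j2 the step lay between E13.5 and E14.5, whereas in Atp5mpl the E15.5 arrays were below all others and the E14.5 arrays overlapped E13.5.

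The 5 genes of the F1 head were not called either, and whether they differ from those of Fo was not tested. Atp5a1, for the alpha subunit, had the highest change of the complex, at log2 0.05 ± 0.20, with -0.45 from a second probe. Atp5b, for the beta subunit, was at log2 -0.62 ± 0.35, Atp5c1, for the gamma subunit, at -0.35 ± 0.19, Atp5d, for the delta subunit, at -0.25 ± 0.18 and Atp5e, for the epsilon subunit, at -0.41 ± 0.28. The c subunit of the ring is encoded by 3 genes that differ in their import signals and give the same mature protein. Of these Atp5g1 fell by log2 -1.07 ± 0.22 (limma adjusted p = 0.0113) and Atp5g2 by -0.94 ± 0.21 (limma adjusted p = 0.0156), with -1.43 from a second probe, whereas Atp5g3 was at -0.30 ± 0.18 and was not called. With quantile scaling the change of Atp5g3 was 0.21.

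**Figure D2:**
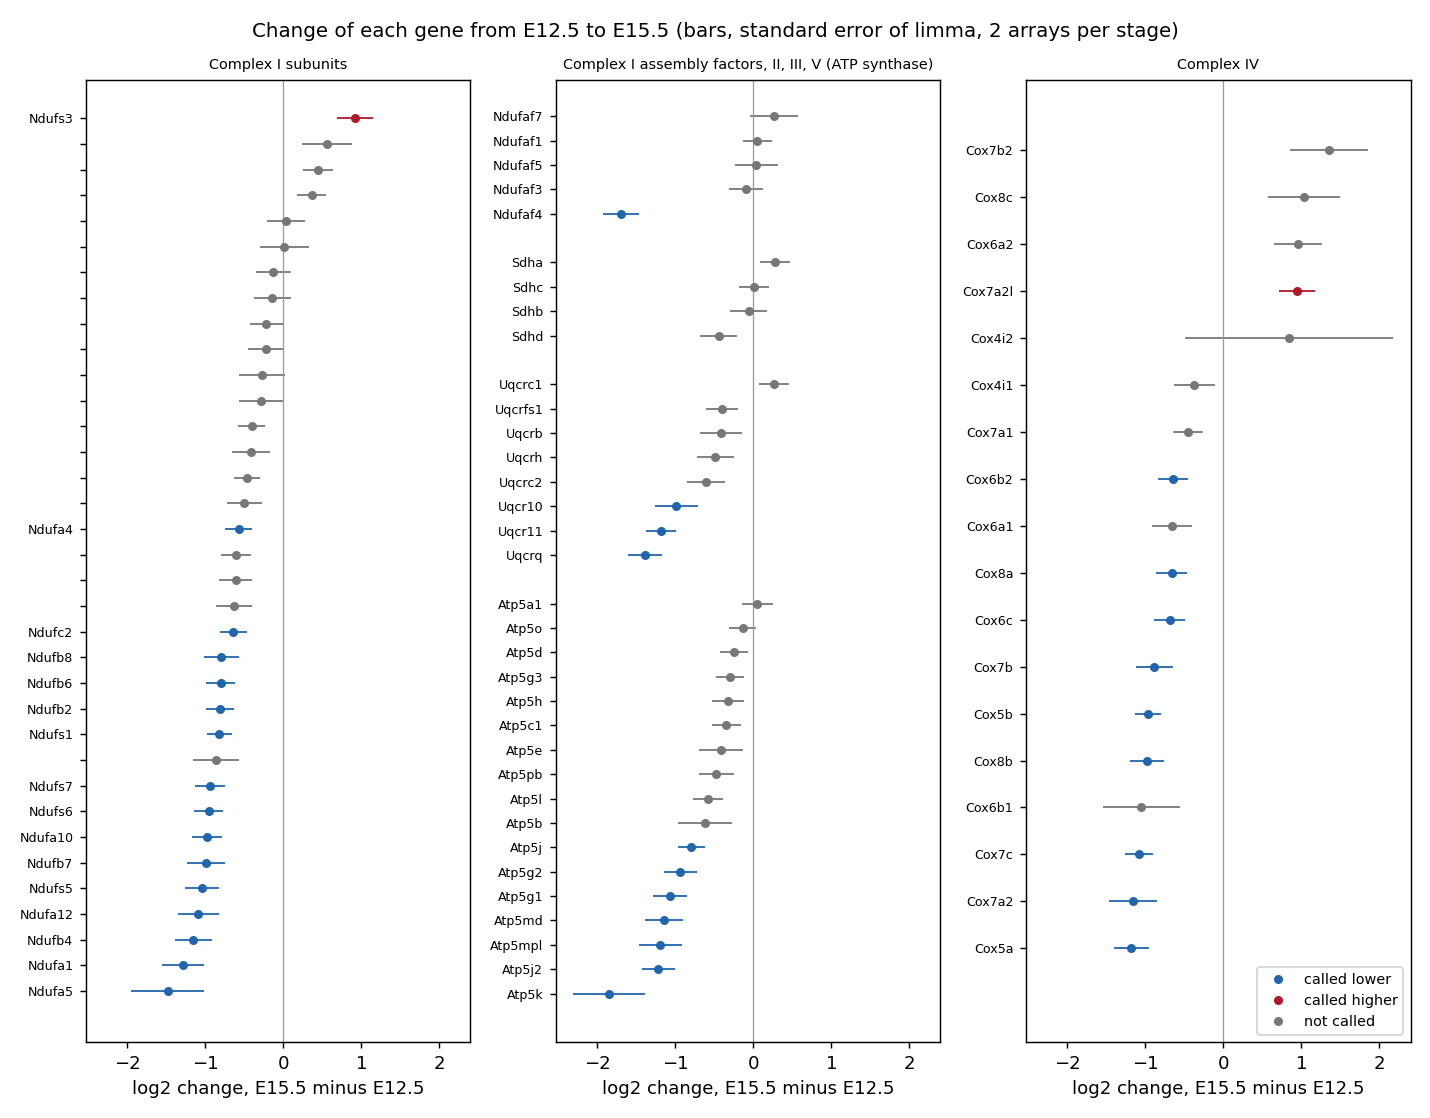
Log2 change from E12.5 to E15.5 (horizontal axis, E15.5 minus E12.5) of each of the 87 genes (rows, by complex), with standard errors of limma from 2 arrays per stage as bars; colours mark genes called lower, called higher or not called, and complex I subunits that were not called are drawn without a name. The 35 called falls run from -0.58 to -1.85, and the 2 called rises, Ndufs3 and Cox7a2l, are at 0.92 and 0.94.

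The question of when the transcripts declined was taken up day by day. Between E12.5 and E13.5 their levels were close: 0 of the 87 genes were called, where 2.68% of all genes were called higher and 1.3% lower. An unadjusted limma p under 0.05 was found for 3762 of all 21986 genes and for 3 of the 87 members. The median change was log2 -0.00, with -0.06 on slide 1 and 0.07 on slide 2, and 45 of 87 changes were below 0 (56.2% of all genes). The E13.5 arrays lay below both E12.5 arrays for 14 genes and above both for 15 (29% and 22.3% of all genes). The 3 highest changes were those of the complex IV isoforms Cox7b2, at log2 2.27 ± 0.50 (limma adjusted p = 0.063), Cox6a2, at 0.95 ± 0.31, and Cox8c, at 0.62 ± 0.46. The 3 lowest were those of Ndufaf4, at log2 -0.61 ± 0.23, Cox5a, at -0.46 ± 0.23, and Atp5pb, for subunit b of the ATP synthase stalk, at -0.46 ± 0.23. None of these 6 was called. Cox7b2 was called higher with arrays scaled to their medians and without either E14.5 array.

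Between E14.5 and E15.5, all on slide 3, again 0 of the 87 genes were called (0.559% of all genes were called higher and 0.0955% lower). An unadjusted limma p under 0.05 was found for 2094 of all 21986 genes and for 20 of the 87 members. Their fitted changes were nevertheless mostly on one side, with 74 of 87 below 0, where 48% of all genes were. The median was log2 -0.24, against 0.01 for all genes tested. Both E15.5 arrays lay below both E14.5 arrays for 42 genes and above them for 2, where 16.6% and 19.8% of all genes did so. The 2 were Cox6a2 and Cox8b, the latter below background on all 4 of these arrays. The count below 0 was 62 or 71 when the first or the second E14.5 array was left out, and 67 or 76 when the first or the second E15.5 array was. The medians of complex I, III, IV and V genes were -0.29, -0.39, -0.21 and -0.25.

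The lowest 3 changes of that day were those of the isoform Cox7b2, at log2 -1.03 ± 0.50, of Atp5mpl, at -0.85 ± 0.28, and of Cox7b, at -0.79 ± 0.24 (limma adjusted p = 0.286). The 3 highest were those of Cox4i2, at log2 2.12 ± 1.33, of Cox6a2, at 0.66 ± 0.31, and of Cox8b. Cox4i2 was above background on only 1 of these 4 arrays, and for Cox8b, with none above background, no value is given. None of these 6 was called.

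Between E13.5 and E14.5, across slides and scan sessions, 6 of the 87 genes were called lower (6.9%) and 0 higher, where 6.04% and 6.44% of all genes were, so the share called was near that of all genes. The 6 were Uqcrq, at log2 -0.97 ± 0.22, Ndufs7, a core subunit of complex I, at -0.91 ± 0.19, Atp5j2, at -0.87 ± 0.21, the complex I accessory subunits Ndufa10, at -0.85 ± 0.19, and Ndufs6, at -0.77 ± 0.18, and the isoform Cox8b (limma adjusted p = 0.00844 to 0.0474). Cox8b passed the filter on dim probes only through its E13.5 arrays, so its call is partly set by that filter, and the other 5 were above background on all 8 arrays. With the array number as a replicate block 2 genes were called lower (2.3%, against 3.43% of all genes). The calls did not hold whichever array was left out. The median change was -0.29, against -0.02 for all genes, and 62 of 87 changes were below 0 (51.1% of all genes). That median was -0.41 without E13.5 array 1 and -0.15 without E13.5 array 2. The E14.5 arrays were below both E13.5 arrays for 40 genes and above both for 7 (30.8% and 29.2% of all genes). Over the 4 stages the lowest mean was at E15.5 for 62 of the 87 genes (29.6% of all genes) and the highest at E12.5 for 35 and at E13.5 for 28 (36.6% and 17.8% of all genes).

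**Figure D3:**
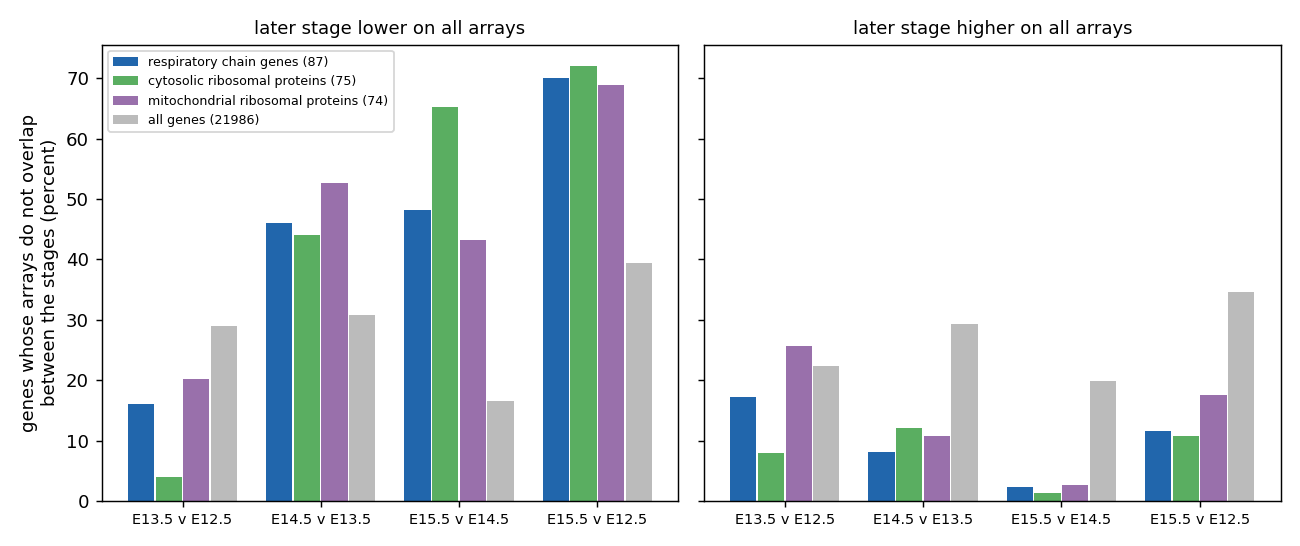
Share of genes (vertical axis, percent) for which both arrays of the later stage lie below (left) or above (right) both arrays of the earlier stage, by comparison (horizontal axis), for respiratory chain genes, ribosomal protein genes and all 21986 genes tested. From E14.5 to E15.5, within slide 3, 48.3% of the respiratory chain genes lie below and 2.3% above, against 16.6% and 19.8% of all genes.

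Several complex IV subunits have isoforms that replace the general form in some tissues, and each was set beside its general form. Cox6a2, Cox7a1 and Cox8b are known from heart and skeletal muscle, Cox4i2 from lung and from low oxygen, and Cox6b2, Cox7b2 and Cox8c from testis. Cox7b2 had levels of -3.66 and -3.12 at E12.5, -1.20 and -1.04 at E13.5, -1.67 and -0.35 at E14.5 and -1.57 and -2.50 at E15.5. All later arrays lay above both E12.5 arrays, but the gene was called in none of the 4 comparisons, with log2 1.36 ± 0.50 from E12.5 to E15.5 (limma adjusted p = 0.0759), the highest fitted change of the complex. Its general form Cox7b fell by log2 -0.89 ± 0.24 (limma adjusted p = 0.0288).

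Cox8c, the other testis isoform with a positive change, had levels of -1.80 and -1.64 at E12.5, -1.29 and -0.91 at E13.5, -1.32 and 0.08 at E14.5 and -0.40 and -0.98 at E15.5. It too lay above E12.5 on all later arrays and was not called, at log2 1.03 ± 0.46 (limma adjusted p = 0.129), while Cox8a fell by -0.66 ± 0.20 (limma adjusted p = 0.0427). The third testis isoform, Cox6b2, fell by log2 -0.65 ± 0.20 (limma adjusted p = 0.0442), from 0.79 and 0.75 at E12.5 to 0.24 and 0.01 at E15.5. Its general form Cox6b1 was at log2 -1.05 ± 0.50 and was not called.

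Of the muscle forms, Cox6a2 had levels of -3.39 and -4.20 at E12.5, -2.69 and -3.01 at E13.5, -3.52 and -3.48 at E14.5 and -3.03 and -2.66 at E15.5. It lay higher at E13.5 than at E12.5 and higher at E15.5 than at E14.5, within slides both times, but was not called in any comparison (log2 0.96 ± 0.31 from E12.5 to E15.5, limma adjusted p = 0.0513). Cox6a1 was at log2 -0.65 ± 0.26 and was not called. Cox7a1 was at log2 -0.45 ± 0.19 and was not called. Cox8b was above background on 3 of 8 arrays, 1 at E12.5 and both at E13.5, and was at least 1.57-fold lower at E14.5 than at E13.5 (limma adjusted p = 0.00844). Since E13.5 alone brought it past the filter, this fall is no independent result. It was called lower at E15.5 than at E12.5 as well (limma adjusted p = 0.0154), but near background no fold could be given.

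Cox4i2 was above background on 4 of 8 arrays, with levels of -5.16 and -6.88 at E12.5, -5.57 and -5.55 at E13.5, -7.05 and -7.55 at E14.5 and -2.95 and -7.40 at E15.5. The E15.5 arrays differed by 4.45 on the log2 scale, more than for any other of the 87 genes, so its fitted change of 0.84 ± 1.33 rested on E15.5 array 1 and was -1.38 without it. Without the second E15.5 array the change was 3.07 and was called higher (limma adjusted p = 0.0381). Cox4i1, the general form, was at log2 -0.37 ± 0.26 (0.09 with quantile scaling). With all arrays neither was called.

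Cox7a2l (chr17:83501917-83514333), related to Cox7a2 and known for joining complexes III and IV into supercomplexes, was the other gene that rose. Its levels were 3.49 and 3.51 at E12.5, 3.72 and 4.30 at E13.5, 4.42 and 4.18 at E14.5 and 4.41 and 4.48 at E15.5. All later arrays lay above both E12.5 arrays, and the rise from E12.5 to E15.5 was log2 0.94 ± 0.23 (limma adjusted p = 0.0226). Without either array of E12.5 or of E15.5 it was not called (limma adjusted p = 0.0784 to 0.114), with changes of 0.90 to 0.98.

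The log2 ratio of isoform to general form was taken within each array, as a description with no test, for the 6 of 8 isoforms above background on all 8 arrays, which leaves out Cox4i2 and Cox8b. It was higher on both E15.5 arrays than on both E12.5 arrays for 5 pairs and lower for 0. Of the levels of all single genes, 34.7% were higher and 39.3% lower without overlap, but no such share was computed for ratios. The pairs of Cox7a2l and Cox7a1 share Cox7a2, so the 5 pairs are not separate observations. The ratio was higher at E15.5 by 2.24 for Cox7b2 over Cox7b, by 2.10 for Cox7a2l over Cox7a2, by 1.69 for Cox8c over Cox8a, by 1.61 for Cox6a2 over Cox6a1 and by 0.71 for Cox7a1 over Cox7a2. For Cox6b2 over Cox6b1 the arrays of the stages overlapped. Such a ratio shows unequal change and not which member moved.

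**Figure D4:**
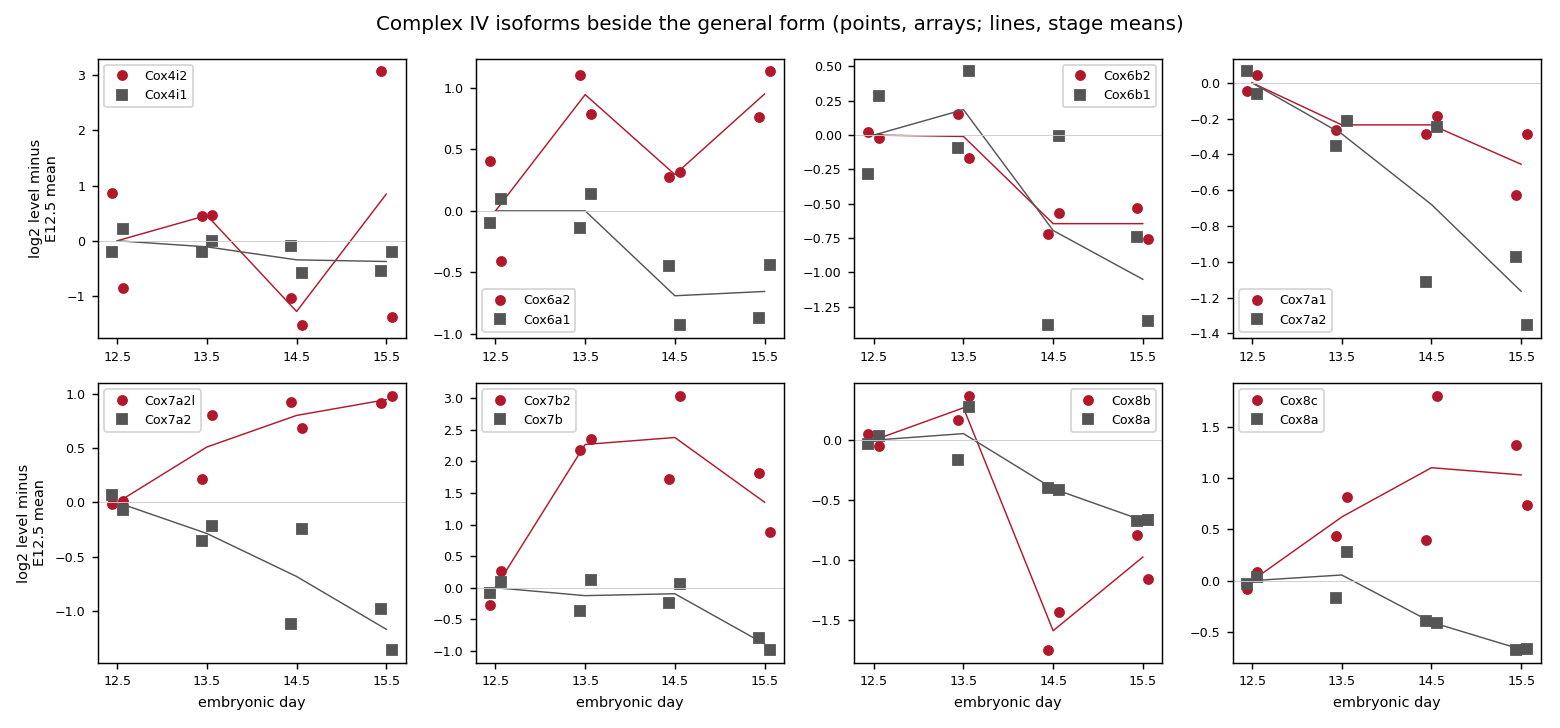
Log2 level minus the gene's mean at E12.5 (vertical axis, scaled per panel) by embryonic day (horizontal axis) for 8 complex IV isoforms (red circles) and their general forms (grey squares); points are arrays and lines join stage means. Cox7b2, Cox8c, Cox6a2 and Cox7a2l lie above and their general forms below the E12.5 mean at E15.5, while the 2 arrays of Cox4i2 at E15.5 are 4.45 apart. Cox4i2 and Cox8b are below background on some arrays.

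Markers of other cell types changed over the same stages, in both directions. The summed level of 9 striated muscle markers (7 above background on all 8 arrays), as a multiple of the array's 75th percentile, was 2.82 to 3.44 at E12.5, 3.88 to 5.02 at E13.5, 7.52 to 7.73 at E14.5 and 13.1 to 15.3 at E15.5, so it was higher at each later stage, and 6 of the 9 genes were called higher at E15.5 than at E12.5. Of the muscle isoforms of complex IV above, Cox6a2 had a positive and Cox7a1 a negative change that were not called. Cox8b was called lower, but it lay near background, so no fold could be given, and it passed the filter only through its E13.5 arrays. Erythroid markers (8 on the array, 7 above background on all) were at 291 to 492 at E12.5 and 192 to 207 at E15.5, with 5 genes called lower and 1 higher. The 6 Leydig cell markers rose from 23.7 to 30.8 at E12.5 to 134 to 159 at E15.5, each of the 6 genes being called. Endothelial markers were at 13.4 on both E12.5 arrays and at 5.04 and 5.07 at E15.5, with 2 of 5 called lower and 0 higher. The 3 mesonephros markers (1 above background on all 8 arrays) were at 1.99 to 2.29 and 0.0882 to 0.134, with 2 called lower and 1 higher. Macrophage markers were at 1.84 to 2.34 at E12.5 and 4.86 to 6.42 at E15.5, with 2 of 4 called higher, and peritubular and smooth muscle markers at 16.4 to 63.3 and 59.7 to 63.4, with 4 of 6 called higher. Sertoli cell markers were at 67.9 to 71.2 and 49.7 to 65.2, with 0 of 6 called. Germ cell markers were at 74.0 to 78.6 at E12.5, 136 to 139 at E13.5 and 90.0 to 118 at E15.5, and from E12.5 to E15.5 the 10 genes went both ways, with 3 called higher and 5 lower and a median of log2 -0.31. The part of these cell types in the changes of respiratory chain genes was not tested.

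Genes around the respiratory chain were counted in the same way for E15.5 against E12.5, where, as above, 17.4% of all genes were called lower and 17.6% higher. Cytochrome c1, a subunit of complex III whose gene Cyc1 lacks the common prefix, had levels of 4.89 and 5.08 at E12.5, 4.58 and 4.75 at E13.5, 3.40 and 3.23 at E14.5 and 3.31 and 3.57 at E15.5. The step lay across slides, between E13.5 and E14.5, and the fall to E15.5 was log2 -1.55 ± 0.19 (limma adjusted p = 0.00195). Cycs, for the mobile carrier cytochrome c, was at log2 0.07 ± 0.18 and was not called. Of 32 measured assembly factors without the prefix, 9 fell and 0 rose, with a median of -0.28. The largest fall among them was that of Lrpprc, which stabilises mitochondrial messenger RNAs, at log2 -1.42 ± 0.18 (limma adjusted p = 0.0022).

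Of 17 measured regulators of mitochondrial biogenesis and gene expression, 6 fell and 0 rose, with a median of -0.40. The nuclear receptor gene Esrrb fell by log2 -2.51 ± 0.22 (limma adjusted p = 0.000563), from -0.29 and -0.77 at E12.5 to -2.99 and -3.08 at E15.5. The coactivator genes Ppargc1a and Ppargc1b, known as drivers of mitochondrial biogenesis in other tissues, fell by log2 -2.33 ± 0.34 (limma adjusted p = 0.00357) and -1.39 ± 0.39 (limma adjusted p = 0.0331). Ppargc1a was at -0.06 and 0.21 at E12.5, -1.18 and -1.23 at E13.5, -1.33 and -2.27 at E14.5 and -2.52 and -1.99 at E15.5, and so lay below E12.5 on all later arrays, those of slides 1 and 2 included. Tfam, which packages and transcribes mitochondrial DNA, was at log2 -0.33 ± 0.22 and the nuclear receptor gene Esrra at -0.10 ± 0.20, and neither was called.

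Mitochondrial ribosomal protein genes fell in 20 of 74 cases (27%) and rose in 4, with a median of -0.39. Cytosolic ribosomal protein genes fell in 15 of 75 cases (20%) and rose in 2, so the share that fell was near the 17.4% of all genes, with a median of -0.47. Their fitted changes were nevertheless below 0 in 62 of 75 cases (82.7%), against 79.3% of the respiratory chain genes and 53.2% of all genes. From E14.5 to E15.5 the cytosolic ones were below 0 in 70 of 75 cases, with a median of -0.24, and the respiratory chain genes in 74 of 87 with the same median. The median deviation of the cytosolic ribosomal protein genes from their means over the 8 arrays was 0.03 and 0.30 at E12.5, -0.00 and 0.34 at E13.5, -0.08 and -0.03 at E14.5 and -0.34 and -0.28 at E15.5. That of the respiratory chain genes was 0.18 and 0.27 at E12.5, 0.08 and 0.31 at E13.5, -0.08 and -0.09 at E14.5 and -0.34 and -0.38 at E15.5. On slide 1 the respiratory chain genes thus lay higher than the ribosomal protein genes, and on the arrays of slide 2 slightly lower. Whether the respiratory chain genes differ from the ribosomal protein genes was not tested.

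Carriers and porins gave 3 falls and 2 rises of 10 genes. Slc25a5, for an ADP/ATP carrier, fell by log2 -1.18 ± 0.17 (limma adjusted p = 0.00353), and Ckmt1, for mitochondrial creatine kinase, rose by 3.20 ± 0.43 (limma adjusted p = 0.00245). Of 18 genes of the citric acid cycle and pyruvate dehydrogenase, 1 rose, Idh3a at log2 0.88 ± 0.24, and 1 fell, Dlst at -0.75 ± 0.17, with a median of -0.12. Glycolysis genes rose in 2 and fell in 3 of 21 cases, with a median of -0.09. The aldolase gene Aldoc rose by log2 2.30 ± 0.20 (limma adjusted p = 0.000486) and the lactate dehydrogenase gene Ldhb fell by -1.5 ± 0.21 (limma adjusted p = 0.00281).

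**Figure D5:**
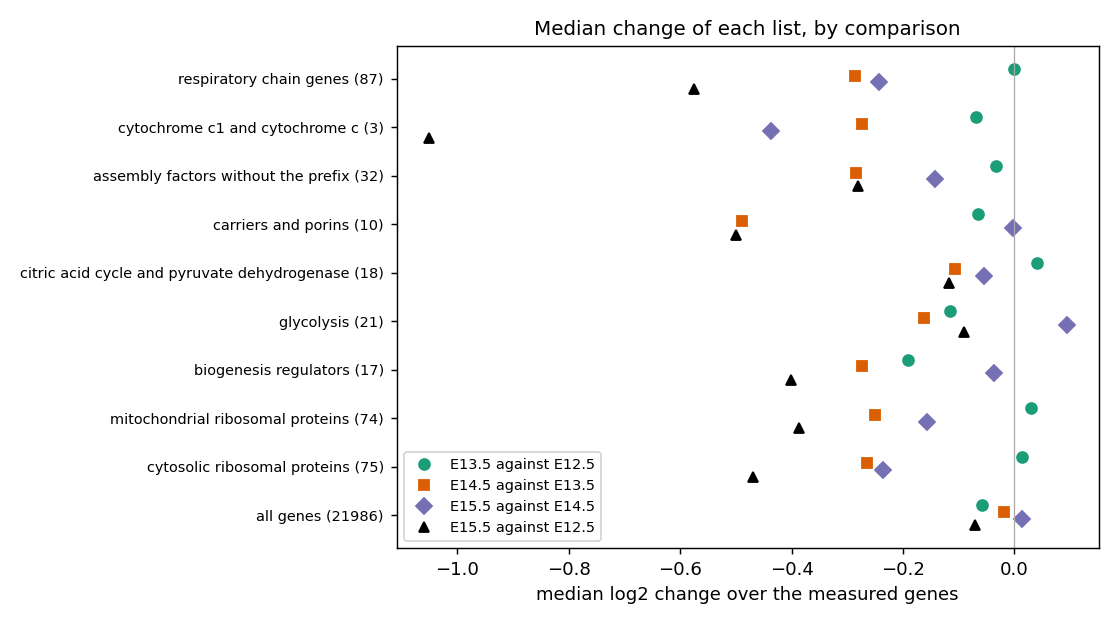
Median log2 change over the measured genes of each list (rows, number of genes in brackets) in the 4 comparisons (symbols); the horizontal axis is the log2 change of the later minus the earlier stage. From E12.5 to E15.5 the median is -0.58 for respiratory chain genes and -0.47 for cytosolic ribosomal proteins, -0.12 for the citric acid cycle, -0.09 for glycolysis and -0.07 for all genes.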

How the data were processed

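Gene expression was measured with 8 one-colour Agilent arrays. Per the labels' protocols, gonads were kept frozen in an RNA preservative and Cy3-labelled cRNA was made by linear amplification. The deposited scanner files hold spot intensity on a linear scale, background-subtracted and detrended within the array and not scaled between arrays, per the file headers. The software was Agilent Feature Extraction 9.5 per the submitters' processing notes, but per the file headers an older release was used for E12.5 and E13.5 than for E14.5 and E15.5. The authors also deposited a table with a linear ratio per probe and stage, whose centring and level are not stated. It served only to check directions and median changes.

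Spots of a probe were averaged without outlier spots, log2 values were centred on the 75th percentile, and a probe entered the test where the 2 arrays of any stage had it well above background (28188 of 41174). RefSeq accessions in the files gave 1 symbol of GRCm38.p6 to 22951 probes (55.7%) and none to 18223. The probe of highest mean stood for a gene. Of the 87 genes, 16 had several probes, and in 4 of these the probes' changes from E12.5 to E15.5 lay on both sides of 0. All arrays entered 1 model with a mean per stage (lmFit and eBayes of limma 3.58.1, R 4.3.3), with 4 residual and 2.57 prior degrees of freedom. The model was tried on simulated data with independent noise per gene and array. Those data held no slide effect, so the trial cannot speak to slides. The number of arrays limits the precision. Where a stage was not above background, a bound ("at least N-fold") was taken against the array's lowest signal above background or the probe's own value, whichever was higher.

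Same-numbered arrays of E12.5 and E13.5 share a slide in the file headers, and their deviations from the stage means correlated across genes at r = 0.646, so these numbers pair the arrays. Alternatives were other background corrections, scalings, filters and probe rules, slide and array number as blocks, and leaving out each array. The members, gene lists, tests and the naming rule (the 10 largest called changes each way per comparison, the extremes of each complex, isoform pairs, complex II and a few genes per other list) were chosen with earlier results of these data known. Other called members are listed by name, and some core subunits of complexes I and III and subunits of ATP synthase with values, after their values were seen. The result of 1 gene is not reported here.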

Additional observations from a re-analysis of the deposited data

How the results depend on the processing

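The 2 arrays per stage limit all tests, and the falls from E12.5 to E15.5 run across slides. For that comparison the main counts were 35 lower and 2 higher (40.2% lower, against 17.4% of all genes). Under normexp background correction, where E13.5 array 2 holds a background value of 32329.5, they were 2 and 0 (2.3% lower, against 2.51%). With such values replaced they were 40 and 2 (46% lower, against 26.7%). With quantile scaling they were 21 and 5 (24.1% lower, against 17.7%), and without a filter 25 and 0 (28.7% lower, against 8.39%). Leaving out 1 array gave 6 to 34 lower and 0 to 4 higher. The median of -0.58 was -0.27 with quantile scaling, -0.90 in the authors' deposited table (all genes -0.39) and -0.59 to -0.49 with 1 array left out. For E14.5 against E13.5 the 6 genes called lower (6.9%, against 6.04% of all genes) became 0 under normexp, where 0 of all genes were. With extreme background values replaced they were 12 (and 1 higher), or 13.8% against 12.4%, so the share stayed near that of all genes. They were 1 with median scaling (1.15%, against 3.71%), 2 with quantile scaling (2.3%, against 6.37%) and 1 without a filter (1.15%, against 1.19%). With only the arrays compared they were 2 (2.3%, against 1.6%). With probes above background on all 8 arrays 1 was called higher, where 6.76% of all genes were. The median of -0.29 was 0.00 under normexp (all genes -0.43), -0.14 with quantile scaling and -0.41 to -0.15 with 1 array left out. For E15.5 against E14.5 no setting called a gene, and the median of -0.24 was -0.39 with median scaling (all genes -0.13), -0.49 in the authors' table (all genes -0.23) and -0.29 to -0.24 with 1 array left out. For E13.5 against E12.5, 1 gene was called higher with median scaling and 0 to 1 with 1 array left out, and the median was -0.31 under normexp (all genes 0.29), -0.12 in the authors' table and -0.12 to 0.11 with 1 array left out. The causes were not tested.

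With slide as a fixed replicate block 0 genes were called in either comparison within slides. With slide as a random replicate block 34 fell (39.1%, against 16.4% of all genes) and 2 rose from E12.5 to E15.5. From E13.5 to E14.5, 4 fell (4.6%, against 5.12%). With the array number as a replicate block these counts were 30 (34.5%, against 16.1%) and 2, and 2 (2.3%, against 3.43%). On slide 3 the deviations of same-numbered arrays correlated at r = -0.589, and the crossed pairing, chosen after seeing the data, called 0 genes.

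Of 25 called changes of named genes 0 reversed, while 23 lost their call under normexp, 20 without E12.5 array 2 or E15.5 array 2, and 11 with quantile scaling. Signs turned only for changes that were not called. With quantile scaling they were 0.09 for Cox4i1, 0.21 for Atp5g3 and 0.13 for Sdhb from E12.5 to E15.5, with the mean of its probes -0.20 for Atp5a1, and with median scaling -0.03 for Sdhc. With 1 array left out they were -0.04 to 0.56 for Ndufaf7, -0.07 to 0.17 for Atp5a1, -0.20 to 0.08 for Sdhb, -0.12 to 0.13 for Sdhc (-0.12 and -0.08 without E15.5 array 1 or E12.5 array 2) and -1.38 to 3.07 for Cox4i2 (-0.02 without E12.5 array 2), and -0.11 to 4.35 for Cox4i2 from E14.5 to E15.5.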
